A study of Homo sapiens with 4 samples.

Results

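The BCL2 family of apoptosis regulators was examined in MV4-11 cells upon CEBPG knockdown. The members were 10 named genes: the pro-survival genes BCL2, MCL1, BCL2L1 and BCL2A1, the effectors BAX and BAK1, and the BH3-only genes BCL2L11, BBC3, PMAIP1 and BID. All 10 were found by their symbol among the 16490 genes of the table, with 41 of its 28581 RefSeq transcripts that have values. Expression was measured as FPKM (fragments scaled to transcript length and library size), and the transcripts of a gene were summed in each library.

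MV4-11 is a human acute myeloid leukemia (AML) cell line with monocytic features and a KMT2A fusion. The study sequenced total RNA from 2 libraries of control cells carrying sh-NC (labelled CEBPG presence) and 2 libraries of cells carrying the hairpin sh-CEBPG#3 (labelled CEBPG knockdown). The sample titles read NC and CEBPG3, from which the names sh-NC and sh-CEBPG#3 were taken. In the study's methods, hairpins against CEBPG were cloned into pLKO.1-puro, and infected leukemia cells were selected with puromycin. By the titles the knockdown group rests on 1 hairpin. The sources used here do not say if libraries with the same hairpin were infected separately. The p-values thus rest on the spread between these libraries, with a variance shared across genes, and this spread may be technical.

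CEBPG, the gene targeted by the hairpin, had 30.4 and 33.6 FPKM in sh-NC cells and 19.2 and 17.1 FPKM in sh-CEBPG#3 cells, and 56.8% of its control level remained. FPKM totals ranged from 364354 to 389766 per library, and the sequencing depth is unknown because FPKM values carry no counts. Of 12 genes listed for the identity of MV4-11 cells, 11 had a mean of at least 1 FPKM, with CD14 as the exception. Their summed level ranged from 970.3 to 1058 FPKM in sh-NC cells and from 3481 to 3660.4 FPKM in sh-CEBPG#3 cells. LYZ, which encodes lysozyme, made up most of this sum (567 and 610 FPKM against 3126 and 2982 FPKM). MEIS1 went the other way, with 6.65 and 7.34 FPKM in sh-NC cells and 3.42 and 3.29 FPKM in sh-CEBPG#3 cells. HOXA9 (31.5 and 35.7 FPKM against 28.5 and 23.6 FPKM) and FLT3 (67.6 and 75.0 FPKM against 66.0 and 62.8 FPKM) were also lower. Every other gene of the list was higher after knockdown, without overlap of the groups. Such separation was common, as 71.7% of the 12142 genes tested below had no overlap (31.5% higher and 40.2% lower). None of the 8 genes listed for T cells and erythroid cells had a value. The summed level over the libraries was 0.995 to 1.52 FPKM for the B cell list and at most 0.0781 FPKM for the fibroblast list. For the epithelial list it was 12.1 and 12.9 FPKM in sh-NC cells and 16.0 and 14.8 FPKM in sh-CEBPG#3 cells. In this list KRT8 was higher after knockdown (2.29 and 2.35 against 6.26 and 6.19 FPKM) and KRT18 was lower (9.77 and 10.6 against 9.75 and 8.57 FPKM). The endothelial list had 18.5 to 43.4 FPKM, almost all from PECAM1, and was higher in sh-CEBPG#3 cells, while VWF reached at most 0.0239 FPKM. The part of these levels in the results given here was not tested.

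BCL2 family proteins decide whether the outer mitochondrial membrane is opened during apoptosis. BAX and BAK form the pores through which cytochrome c leaves, the pro-survival proteins hold them in check, and the BH3-only proteins free or activate them in response to stress. Myeloid leukemia cells commonly depend on BCL2 and MCL1, which are targets of the drugs called BH3 mimetics.

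All 10 members were tested, among 12142 genes whose level averaged 0.5 FPKM or more in the 4 libraries. Of these members, 7 were higher in sh-CEBPG#3 cells at an adjusted p under 0.05 in limma (on log2(FPKM + 1), with Benjamini-Hochberg adjustment over the 12142 genes), where 18.5% of all genes tested were called higher. They were MCL1, BCL2L1 and BCL2A1 among the pro-survival genes, both effectors, and BCL2L11 and BID among the BH3-only genes. At this threshold 0 members were lower, where 23.8% of all genes were called lower, and at an unadjusted p under 0.05 in limma 2 members were lower, BCL2 and PMAIP1, where 28.5% of all genes were. Scaling the libraries to equal FPKM totals gave 7 higher and 2 lower members, and quantile normalization gave 6 higher and 2 lower. Without sh-CEBPG#3 replicate 1, 4 members were higher (MCL1, BCL2A1, BAK1 and BID), and 3 were higher (MCL1, BCL2A1 and BAK1) when the most abundant transcript was used in place of each sum. The median log2 fold change of the members was 0.28, and that of all genes tested was -0.04.

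The libraries of the 2 groups did not overlap for any of the 10 members, where 71.7% of all genes tested had no overlap. In 8 of the members both knockdown libraries lay above both controls (31.5% of all genes), and in 2 they lay below (40.2% of all genes). With 2 libraries a group, an exact two-sided permutation test of a single gene cannot go below p = 0.333, so the calls rest on the variance that limma shares across genes. The study's limits of p under 0.05 and a change above 1 on the log2 scale, applied here to the unadjusted p of limma, were passed by 1 member, BCL2A1, and by 3.41% of all genes tested. Since RNA was taken from whole cultures, a change in the number of cells that express a gene and a change in its RNA per cell cannot be told apart.

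**Figure D1:**
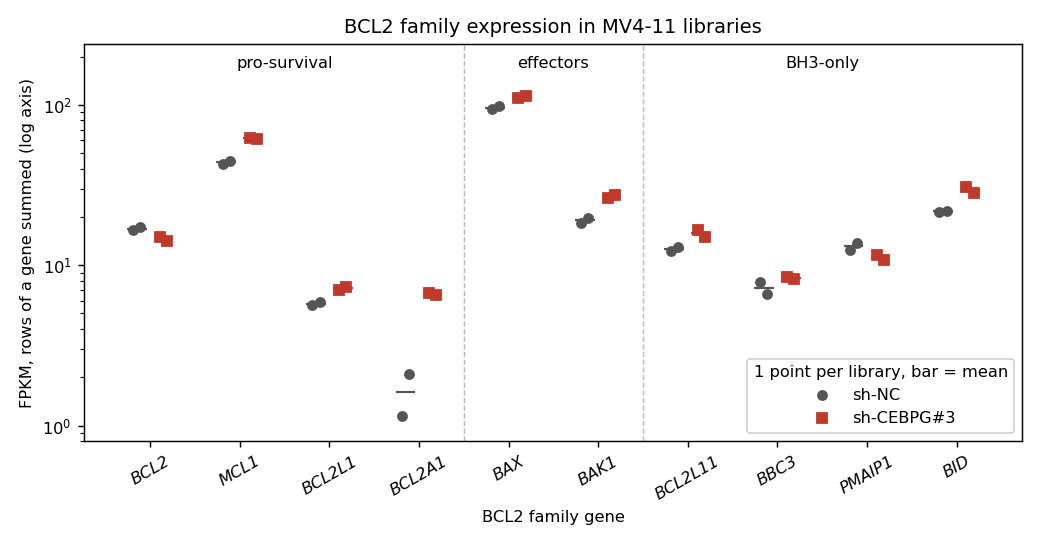
Summed FPKM (log axis) of each of the 10 genes, with 1 point per library and a bar at the group mean, for sh-NC (circles) and sh-CEBPG#3 (squares). BAX was the most abundant member in both groups (96.3 and 113 FPKM), and BCL2A1 showed the widest gap between the groups (1.62 and 6.60 FPKM).

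Among the pro-survival genes, BCL2A1 had 1.15 and 2.09 FPKM in sh-NC cells and 6.68 and 6.51 FPKM in sh-CEBPG#3 cells. BCL2A1 encodes BFL-1, a short-lived pro-survival protein of blood cells. It was the least abundant member of the control cells, and its control libraries differed by 1.82-fold, more than those of any other member. Its mean rose from 1.62 ± 0.667 to 6.60 ± 0.118 FPKM (SD, n = 2 each), a 4.07-fold difference. The log2 fold change on log2(FPKM + 1) values was 1.56 (standard error 0.15, adjusted p = 3.81e-05 in limma), above 99.1% of the genes tested. Adding 0.1 or 0.01 in place of 1 gave 2.02 and 2.08. With 1 added, the estimate stayed between 1.30 and 1.82 when single libraries were left out, and was lowest without sh-NC replicate 1.

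The start of BCL2A1 lies on the minus strand of chromosome 15 (gene span 79960892 to 79971196, RefSeq on GRCh38.p14). The window from 250 bases before to 50 bases after its start was searched on both strands for 3 sets of letters: TTNCNNAA (C/EBP-like), TGATGNAA (the composite element of C/EBP and ATF factors, which CEBPG is known to bind together with ATF4) and the interferon-stimulated response element. The last 2 were found, and both stretches are shown because BCL2A1 changed most. Capitals mark the matched letters, and positions are counted from the start that the RefSeq window uses.
BCL2A1, -63 to -56, chr15:79971242-79971269, minus strand: tattataaagTGATGCAAacagaaattc
BCL2A1, -133 to -124, chr15:79971310-79971339, minus strand: cattttaaacTTTCTCTTTCatacatgaca

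Of 35116 promoter windows in the RefSeq table, 3.62% held TGATGNAA and 3.57% held the interferon-stimulated response element. With 41.0% G and C, the window of BCL2A1 was also poorer in these bases than the median window (58.7%). Windows were found for 9 of the 10 members, and MCL1 had none. TGATGNAA was found for no other member, and the interferon-stimulated response element for BBC3 alone, as 2 matches that share bases downstream of its start. TTNCNNAA, which 36.8% of all windows held, was found for BCL2, BAK1, BBC3 and BID. The windows of BCL2 and BBC3 are set on a start inside the outermost span of the gene, so their matches are not shown. BID, which also rose, held matches at -146 to -139 and -97 to -90 in 1 of its 5 windows. Both read on the strand of the gene and are not shown. The match of BAK1, a member that rose, is shown and reads on the strand opposite to the gene.
BAK1, -230 to -223, chr6:33580489-33580516, minus strand: gcagcagtgcTTAAGAAActtctcaccc
A match is a description of the letters and not a measured binding site.

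MCL1 encodes a pro-survival protein with a fast turnover that binds BAK and BIM. It had 43.1 and 44.9 FPKM in sh-NC cells and 62.2 and 61.6 FPKM in sh-CEBPG#3 cells. Every knockdown library thus lay above both controls, and the libraries of a group differed little. The mean rose 1.41-fold, from 44.01 ± 1.31 to 61.9 ± 0.396 FPKM (SD, n = 2 each), with a log2 fold change of 0.48 (standard error 0.07, adjusted p = 0.00046 in limma).

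BCL2L1, which encodes BCL-xL, had 5.65 and 5.89 FPKM in sh-NC cells and 6.995 and 7.36 FPKM in sh-CEBPG#3 cells. It rose 1.24-fold, with a log2 fold change of 0.27 (standard error 0.09, adjusted p = 0.0334 in limma). This was the weakest of the 7 calls, and leaving out any 1 of the 4 libraries ended it (adjusted p = 0.0597 to 0.138 in limma, log2 fold change 0.24 to 0.30), as did using no filter on low values (adjusted p = 0.0677 in limma).

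BCL2, the founder of the family and the target of venetoclax, had 16.5 and 17.3 FPKM in sh-NC cells and 14.97 and 14.1 FPKM in sh-CEBPG#3 cells. Both knockdown libraries lay below both controls, at 85.9% of the control mean. The log2 fold change of -0.21 (95% confidence interval -0.39 to -0.03) did not pass the adjusted threshold (adjusted p = 0.0635 in limma). It passed with quantile normalization (-0.18, adjusted p = 0.025 in limma) and with equal totals (-0.23, adjusted p = 0.0108 in limma). The ratio of MCL1 to BCL2 in FPKM was 2.61 and 2.59 in sh-NC cells and 4.16 and 4.36 in sh-CEBPG#3 cells, and it was not tested.

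**Figure D2:**
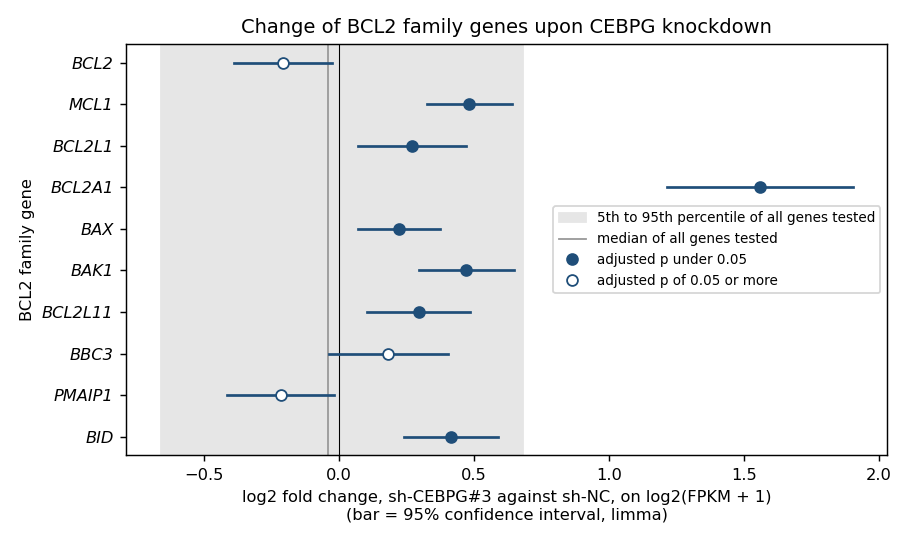
Log2 fold change of each member between sh-CEBPG#3 and sh-NC on the log2(FPKM + 1) scale, with its 95% confidence interval from limma, beside the 5th to 95th percentile of all genes tested (-0.66 to 0.68, shaded). Filled points have an adjusted p under 0.05, and BCL2A1 (1.56) is the member outside the shaded range.

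Both effectors rose. BAK1, which encodes the pore-forming protein BAK of the mitochondrial membrane, had 18.4 and 19.6 FPKM in sh-NC cells and 26.1 and 27.4 FPKM in sh-CEBPG#3 cells. It is listed with 1 transcript, NM_001188. A pseudogene copy, BAK1P1, is known, and how reads shared with it were assigned is not given in the sources used here. The mean rose 1.41-fold, from 19.0 ± 0.877 to 26.8 ± 0.959 FPKM (SD, n = 2 each), with a log2 fold change of 0.47 (standard error 0.08, adjusted p = 0.00101 in limma).

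BAX encodes the effector that moves from the cytosol to mitochondria, and it had the highest level of the family. Its libraries had 94.6 and 98.0 FPKM in sh-NC cells and 111 and 114 FPKM in sh-CEBPG#3 cells. The difference was 1.17-fold (log2 fold change 0.22, standard error 0.07, adjusted p = 0.0238 in limma). This call was lost without sh-CEBPG#3 replicate 1 (0.24, adjusted p = 0.135 in limma), without sh-CEBPG#3 replicate 2 (0.21, adjusted p = 0.204 in limma) and with quantile normalization (0.13, adjusted p = 0.0604 in limma). It was also lost with no trend in the variance (adjusted p = 0.0703 in limma) and with the most abundant transcript (0.17, adjusted p = 0.401 in limma). The ratio of BAX to BCL2 in FPKM was 5.72 and 5.65 in sh-NC cells and 7.43 and 8.08 in sh-CEBPG#3 cells. It was not tested, and its BAX sum includes a non-coding transcript.

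Among the BH3-only genes, BID and BCL2L11 rose. BID encodes the protein that caspase-8 cleaves to link death receptors with mitochondria. It had 21.5 and 21.9 FPKM in sh-NC cells and 30.6 and 28.1 FPKM in sh-CEBPG#3 cells, a 1.35-fold difference (log2 fold change 0.42, standard error 0.08, adjusted p = 0.00212 in limma). BCL2L11 encodes BIM, an activator that binds every pro-survival member. It had 12.3 and 13.1 FPKM in sh-NC cells and 16.6 and 15.1 FPKM in sh-CEBPG#3 cells, a 1.25-fold difference (log2 fold change 0.30, standard error 0.09, adjusted p = 0.0182 in limma). The call of BCL2L11 was lost without sh-CEBPG#3 replicate 1 (0.23, adjusted p = 0.133 in limma). With the most abundant transcript, BCL2L11 (0.50, adjusted p = 0.109 in limma) and BID (0.41, adjusted p = 0.0541 in limma) both missed the threshold.

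BBC3 and PMAIP1 encode PUMA and NOXA, which p53 is known to induce, and neither passed the threshold. BBC3 had 7.87 and 6.64 FPKM in sh-NC cells and 8.49 and 8.21 FPKM in sh-CEBPG#3 cells. It shares exon bases with the miRNA genes MIR3190, on the other strand, and MIR3191, on the same strand. How reads there were assigned is not given in the sources used here. Its log2 fold change was 0.18 (95% confidence interval -0.04 to 0.40, adjusted p = 0.162 in limma). PMAIP1 had 12.5 and 13.8 FPKM in sh-NC cells and 11.6 and 10.8 FPKM in sh-CEBPG#3 cells, 85.1% of the control mean. Its log2 fold change was -0.22 (95% confidence interval -0.41 to -0.02, adjusted p = 0.0757 in limma). NOXA binds MCL1, the member that rose by 0.48 on the log2 scale. PMAIP1 passed the threshold with quantile normalization (-0.18, adjusted p = 0.0392 in limma), with equal totals (-0.24, adjusted p = 0.016 in limma) and without sh-NC replicate 1 (-0.28, adjusted p = 0.0375 in limma).

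FPKM is scaled to transcript length, so levels can be set roughly side by side between genes. How reads were assigned to transcripts is not given in the sources used here. Small gaps, such as the 1.14-fold between BID and BAK1 in sh-NC cells, therefore give no firm order. In sh-NC cells the order was BAX, MCL1, BID, BAK1, BCL2, PMAIP1, BCL2L11, BBC3, BCL2L1 and BCL2A1. BAX was 2.19-fold above MCL1, which was 2.03-fold above BID. Each gene lay above the next in both libraries except PMAIP1 and BCL2L11, whose libraries overlapped (13.1 and 12.7 FPKM on average). In sh-CEBPG#3 cells BCL2L11 stood above BCL2 and PMAIP1, BCL2A1 was still the lowest (6.60 FPKM) but close to BCL2L1 (7.18 FPKM), and no neighbours overlapped.

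Summed over the 4 pro-survival genes, the level was 66.4 and 70.3 FPKM in sh-NC cells and 90.8 and 89.6 FPKM in sh-CEBPG#3 cells. Summed over the 6 pro-apoptotic genes, it was 167 and 173 FPKM in sh-NC cells and 204.4 and 203.6 FPKM in sh-CEBPG#3 cells. Both sides of the family were thus higher in both knockdown libraries. The pro-survival genes made up 28.4% and 28.9% of the summed level in sh-NC cells and 30.8% and 30.6% in sh-CEBPG#3 cells. These sums are dominated by MCL1 and BAX and carry no test.

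Transcripts were also tested one by one, on the 18624 transcripts with a mean of at least 0.5 FPKM. Of the 41 member transcripts, 29 passed this filter. At an adjusted p under 0.05 in limma 3 were higher, where 4.16% of all transcripts were called higher. At this threshold 0 member transcripts were lower, where 4.08% of all transcripts were, and none was at an unadjusted p under 0.05 in limma, at which 5 were higher. At that unadjusted threshold 13% of all transcripts were higher and 15.5% were lower. The 3 transcripts were NM_021960 of MCL1, NM_001188 of BAK1 and NM_004049 of BCL2A1. All 3 calls were lost with no filter on low values and with each library left out in turn.

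The levels of single transcripts were less stable than the sums. Of 58 pairs of libraries (29 transcripts in 2 groups), 21 differed by more than 1.5-fold and 4 had a library listed at 0, while 1 of 20 pairs of gene sums differed by more than 1.5-fold, that of BCL2A1 in sh-NC cells.

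NM_021960, which encodes the long pro-survival form of MCL1, had 38.3 and 43.5 FPKM in sh-NC cells and 59.4 and 57.8 FPKM in sh-CEBPG#3 cells (log2 fold change 0.51, standard error 0.08, adjusted p = 0.0447 in limma). NM_182763, which encodes a short form without the membrane anchor, had 4.78 and 1.44 FPKM in sh-NC cells and 2.77 and 3.89 FPKM in sh-CEBPG#3 cells. The groups overlapped for the short form, and the long form held on average 92.8% of the MCL1 level in sh-NC cells and 94.6% in sh-CEBPG#3 cells.

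For BCL2A1, NM_004049 had 0.816 FPKM in sh-NC replicate 1, was listed at 0 in sh-NC replicate 2 and had 3.98 and 4.57 FPKM in sh-CEBPG#3 cells (log2 fold change 1.97, standard error 0.34, adjusted p = 0.0486 in limma). NM_001114735, an alternative form, had 0.332 and 2.09 FPKM in sh-NC cells and 2.70 and 1.94 FPKM in sh-CEBPG#3 cells. Its groups overlapped. NM_004049 made up 59.6% and 70.2% of the BCL2A1 level in sh-CEBPG#3 cells, and 71.1% in sh-NC replicate 1 against none in sh-NC replicate 2. The control libraries thus did not fix the proportion of the forms.

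BAX was spread over 7 transcripts. NM_138761, which encodes BAX alpha, held 54.4% of its level in sh-NC cells and 52.6% in sh-CEBPG#3 cells on average, and its groups overlapped, with 47.8 and 57.1 FPKM against 53.2 and 65.4 FPKM. The non-coding transcript NR_027882 had 11.8 and 11.5 FPKM in sh-NC cells and 16.6 and 14.8 FPKM in sh-CEBPG#3 cells (log2 fold change 0.40, adjusted p = 0.079 in limma). Summing NM transcripts alone left the 7 calls of the gene sums in place.

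BCL2L11 was spread over 12 transcripts, of which 6 were tested and none passed. The most abundant, NM_138621, had 4.31 and 6.53 FPKM in sh-NC cells and 7.82 and 8.11 FPKM in sh-CEBPG#3 cells (log2 fold change 0.50, adjusted p = 0.197 in limma). BCL2L1 was spread over 6 transcripts of at most 3.37 FPKM in any library, and 3 of them were listed at 0 in at least 1 library. NM_138578 had 0.275 and 1.90 FPKM in sh-NC cells, then 1.61 FPKM and a listing at 0 in sh-CEBPG#3 cells. When its most abundant transcript stood for BCL2L1, the log2 fold change was -0.0045.

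The remaining members were each carried by 1 main transcript. NM_001196 held 88.0% and 87.6% of the BID level in sh-NC and sh-CEBPG#3 cells, with 18.7 and 19.5 FPKM against 28.2 and 23.3 FPKM (adjusted p = 0.109 in limma). NM_000633, which encodes BCL2 alpha, held 98.3% and 97.7% of the BCL2 level. NM_014417 held 85.1% and 83.9% of the BBC3 level, and NM_021127 was the single transcript of PMAIP1.

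The 3 genes with the profile nearest to BCL2A1 over the 4 libraries were ITGB2-AS1, SP110 and CTNND1, by the Euclidean distance between log2(FPKM + 1) values centred on each gene's mean (0.136, 0.192 and 0.207). Their log2 fold changes were 1.51, 1.43 and 1.61. For PMAIP1, the member with the largest decrease, the nearest were NDST1, WDR43 and RNASEH2C (distances of 0.00904, 0.00971 and 0.0122), with log2 fold changes of -0.22, -0.21 and -0.21. With 4 libraries in 2 groups such a likeness reflects mainly the difference between the groups.

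Of 58 other apoptosis genes, 54 had values and 50 were tested. At an adjusted p under 0.05 in limma 11 were higher and 6 were lower, where 18.5% and 23.8% of all genes tested were called higher and lower. Their median log2 fold change was 0.01.

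Of 12 further BCL2 family and related genes tested, 3 rose and 1 fell, where 18.5% and 23.8% of all genes tested did. BNIP3 and BNIP3L, which encode mitochondrial proteins of mitophagy, rose most. BNIP3 had 15.03 and 16.0 FPKM in sh-NC cells and 30.7 and 28.1 FPKM in sh-CEBPG#3 cells, and BNIP3L had 8.51 and 9.48 FPKM against 18.9 and 17.2 FPKM (log2 fold changes of 0.88 and 0.93, adjusted p = 2.55e-05 and adjusted p = 3.52e-05 in limma). BNIP2 rose by 0.30 on the log2 scale (adjusted p = 0.00946 in limma). BIK, a BH3-only gene, had 23.7 and 25.2 FPKM in sh-NC cells and 17.7 and 18.5 FPKM in sh-CEBPG#3 cells, and fell by 0.41 on the log2 scale (adjusted p = 0.00231 in limma).

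Among the genes for mitochondrial release, the apoptosome and the caspases, those called went in both directions. Of 10 genes for mitochondrial release and the apoptosome, 1 rose and 2 fell, where 18.5% and 23.8% of all genes tested did. Both knockdown libraries lay below both controls in 7 of the 10 (40.2% of all genes) and above them in 2 (31.5%). The median log2 fold change of the 10 was -0.19. DIABLO, whose product SMAC blocks the inhibitors of apoptosis, had 20.0 and 20.8 FPKM in sh-NC cells and 10.02 and 9.30 FPKM in sh-CEBPG#3 cells (log2 fold change -1.01, adjusted p = 1.12e-05 in limma). AIFM1, a flavoprotein of the intermembrane space, fell by 0.37 on the log2 scale, while VDAC2, an outer membrane channel that binds BAK, rose by 0.28 (adjusted p = 0.00352 and adjusted p = 0.0122 in limma). Among the caspases, CASP8, the initiator that cleaves BID, rose by 0.45 on the log2 scale (adjusted p = 0.00302 in limma). CASP6, a caspase that acts late, fell by 0.44 on the log2 scale (adjusted p = 0.0191 in limma).

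Of 5 inhibitors of apoptosis tested, 1 rose, 1 fell and 3 were not called at the adjusted threshold. Of all genes tested, 18.5% were called higher and 23.8% lower. BIRC5, which encodes survivin and also serves in mitosis, had 24.6 and 24.7 FPKM in sh-NC cells and 11.8 and 11.9 FPKM in sh-CEBPG#3 cells (log2 fold change -0.996, adjusted p = 7.75e-06 in limma). BIRC2 rose by 0.34 on the log2 scale (adjusted p = 0.0109 in limma).

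In the death receptor pathway 5 of 9 genes tested rose and none fell at the adjusted threshold, where 18.5% and 23.8% of all genes tested did. At an unadjusted p under 0.05 in limma 1 was lower, where 28.5% of all genes were. TNFSF10, which encodes the ligand TRAIL, had 2.59 and 2.21 FPKM in sh-NC cells and 11.0 and 9.12 FPKM in sh-CEBPG#3 cells (log2 fold change 1.70, adjusted p = 2.94e-06 in limma). TNFRSF10B, which encodes its receptor DR5, had 49.8 and 52.1 FPKM against 82.6 and 81.3 FPKM (0.67, adjusted p = 5.32e-05 in limma). FAS, another death receptor, had 8.05 and 9.14 FPKM against 14.3 and 13.7 FPKM (0.64, adjusted p = 0.000341 in limma).

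Of 5 enzymes tested that add or remove ubiquitin on MCL1 or BIM, 0 passed the adjusted threshold in limma. Of all genes tested, 18.5% were called higher and 23.8% lower. None of the 5 had an unadjusted p under 0.05 in limma, at which 2673 of the 12142 genes were higher and 3466 were lower. Their log2 fold changes ranged from -0.14 to 0.09.

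**Figure D3:**
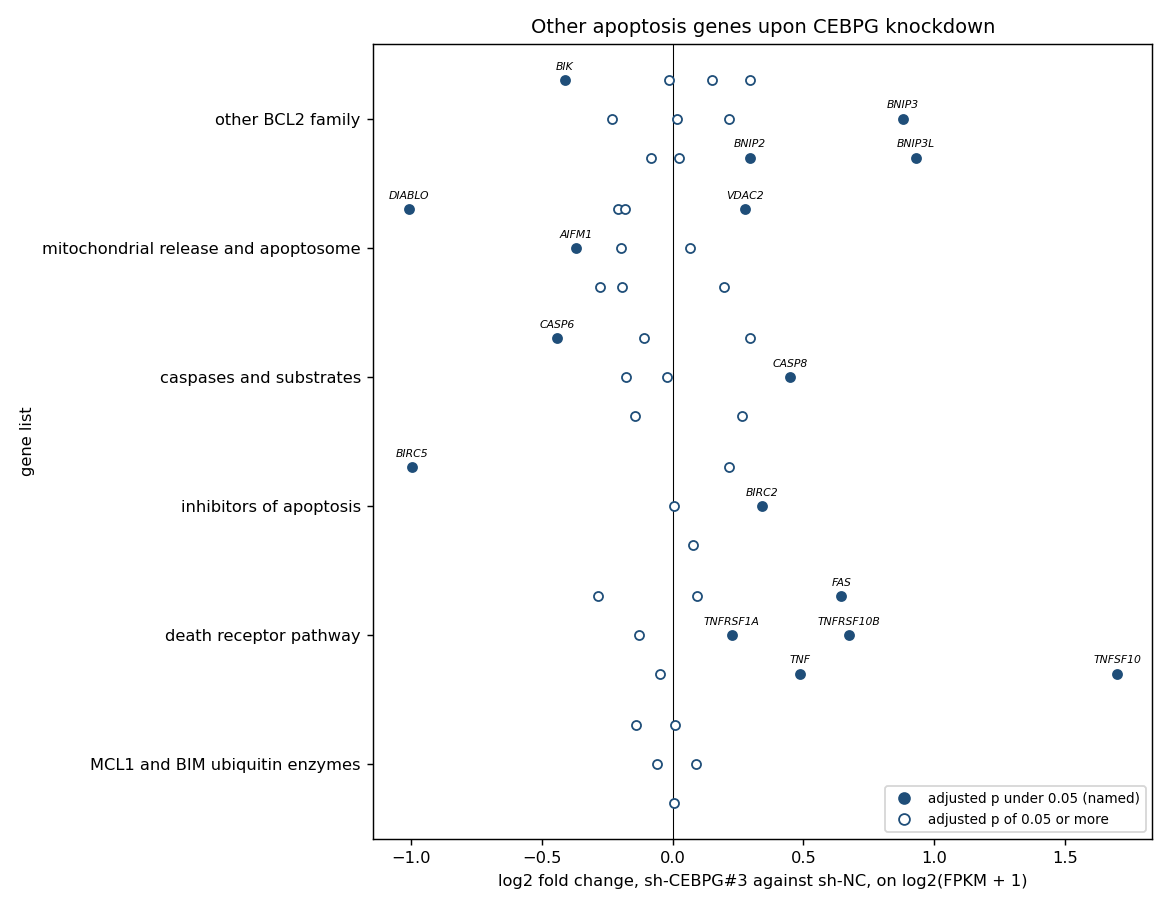
Log2 fold change of 49 of the other apoptosis genes tested, by list, on the log2(FPKM + 1) scale. Filled, named points have an adjusted p under 0.05 in limma (11 higher and 5 lower), and the points within a list are set apart vertically for legibility alone.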

How the data were processed

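RNA-seq of MV4-11 cells was analysed from 2 sh-NC and 2 sh-CEBPG#3 libraries, grouped by the sample titles. The authors filtered the reads and mapped them, per the submitters' processing notes with HISAT2 2.0.5 on hg38, and deposited FPKM values per RefSeq transcript and library. The program that computed FPKM and the annotation release are not given in the sources used here. The kit named in the labels is TruSeq RNA, and 199 of 28780 listed transcripts had no value.

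FPKM values were summed by symbol. Genes averaging 0.5 FPKM or more were fitted as log2(FPKM + 1) with limma 3.58.1 (lmFit, eBayes with a trend) in R 4.3.3, with Benjamini-Hochberg adjustment over all genes tested. On this scale the fold changes of weakly expressed genes are understated. The study used DESeq2, which takes counts and was not run here. The fit was tested on simulated data. Depth is unknown, so no counting interval is given.

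The members, gene lists and motifs were chosen with earlier results of these data known. Named were all members, the changed genes of the wider BCL2 family, and up to 3 changed genes with the smallest p of each other list. Gene spans and promoter windows are from RefSeq (GRCh38.p14), all 41 member accessions matched, and no protein sequences were used. Exon overlap was checked in GENCODE, where 2 miRNA genes share exons with BBC3, and it was not examined for 2 loci within BCL2 and BCL2L1. One gene of these lists is not reported here, though the list counts include it. Alternatives were other pseudocounts, filters, scalings, transcript choices, no trend, a replicate block and leaving out each library.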

Additional observations from a re-analysis of the deposited data

How the results depend on the processing

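MCL1, BCL2A1 and BAK1 were higher at an adjusted p under 0.05 in limma under all 14 alternatives, and CEBPG was lower under all 14 (log2 fold change -0.87 to -0.70). The number of higher members was 7, 3 with the most abundant transcript in place of each sum, and 4 to 6 with each library left out. The number of lower members was 0, 2 with quantile normalization, 2 with equal totals, and 0 to 1 with each library left out. A fit with 1 library in a group assumes that it varies like the other group. Other apoptosis genes lower rose from 6 to 11 with equal totals, and all genes called went from 2244 higher and 2884 lower to 1329 and 1535 with the most abundant transcript. The 3 higher member transcripts became 0 with no filter, 0 with the replicate block, 2 with a pseudocount of 0.1 and 0 with each library left out. BCL2L1 reversed to -0.0045 with its most abundant transcript, NM_001317921. For each of these the cause was not tested.

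With the replicate block 5 members were higher and none lower, and the calls of BAX (adjusted p = 0.131 in limma) and BCL2L1 (adjusted p = 0.0612 in limma) were lost. Same-numbered libraries deviated with a correlation of 0.061. With 2 libraries a group this cannot settle if they were paired, and the sources used here do not say what the number stands for.

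Of the transcripts tested, 10 changed sign, none of which had passed. Their leave-one-out log2 fold changes were -1.21 to 0.072 for NM_001204106, -0.042 to 0.084 for NM_001244570, -0.31 to 0.30 for NM_001317921 (0.0054 with a pseudocount of 0.1), -0.28 to 0.054 for NM_004324, -0.25 to 0.48 for NM_006538, -0.94 to 0.44 for NM_138578, -0.35 to 0.47 for NM_138763, -0.43 to 0.81 for NM_182763, -0.81 to 0.60 for NM_197967 and -0.16 to 0.39 for NR_134257.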
